A study of Mus musculus with 24 samples.

Results

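The let-7 family was followed on microRNA (miRNA) arrays through storage of mouse liver, through removal of small RNAs and through digestion with RNase. Its members here are the 8 mature miRNAs of the 5p arm listed as mmu-let-7a-5p to mmu-let-7g-5p and mmu-let-7i-5p, written below without the species prefix and arm. They were taken by name from the 1881 mouse miRNAs of the array, all 8 were found, and all 8 passed the filter on detection, which kept 631 miRNAs. The rule uses names alone.

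The study used the livers of 3 male mice, numbered 7, 9 and 10, and hybridized 24 arrays, 1 per mouse in each of 8 groups. Strain and age of these mice are not given in the sources used here. Fresh liver (0 h) and liver kept for 96 h at room temperature were both extracted with the miRNeasy kit, which retains small RNAs, either with DNase digestion on the column or without it, which made 4 groups. The fifth group was fresh liver RNA extracted with the RNeasy kit and DNase. That kit loses most small RNAs, so this RNA is called depleted, although it is not free of miRNAs. For the remaining groups, aliquots of depleted RNA were incubated with 0 U, 0.026 U or 0.67 U of RNase and recovered with the miRNeasy kit. For mouse 9 the labels of the 0.026 U and 0.67 U arrays contradict each other. They were grouped by their descriptions, with which the RNA integrity number (RIN, highest for intact RNA) in the labels fits, 6.0 at the lower dose and 2.4 at the higher.

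let-7 was among the first miRNA families to be described, is nearly identical in sequence from worms to mammals, and is abundant in differentiated tissues such as adult liver. Its precursors are bound by LIN28 in stem cells, which blocks their processing, and the mature forms repress growth and cell cycle genes such as Ras genes and Hmga2. All members bind targets through the same seed, the stretch of bases near the 5′ end that pairs with the messenger RNA, so on an array they are told apart only by their remaining bases.

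The mature sequences are shown because the members differ at few positions. All 8 matched a RefSeq entry (GRCm38.p6), all are 22 bases long, and all carry the same seed, in capitals (bases 2 to 8, counted from the 5′ end). They are followed by miR-98-5p, a miRNA with the same seed from the X chromosome.
let-7a-5p: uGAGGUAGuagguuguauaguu
let-7b-5p: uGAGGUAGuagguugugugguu
let-7c-5p: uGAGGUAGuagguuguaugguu
let-7d-5p: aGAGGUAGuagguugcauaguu
let-7e-5p: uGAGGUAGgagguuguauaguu
let-7f-5p: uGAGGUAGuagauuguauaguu
let-7g-5p: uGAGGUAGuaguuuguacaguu
let-7i-5p: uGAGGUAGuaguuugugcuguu
miR-98-5p: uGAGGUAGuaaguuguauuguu

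Any pair of the 8 members differed at 1 to 6 bases. With let-7a as the reference, let-7c carried A19G and let-7b carried A17G and A19G. let-7e differed by U9G alone, let-7d by U1A and U16C, and let-7f by G12A. let-7g carried G12U and U18C, and let-7i carried G12U, A17G, U18C and A19U. The number of G and C bases ran from 7 in let-7f to 10 in let-7b. Cross-hybridization between members was not tested, and each member was read by 2 probes of 15 spots each, none of them saturated.

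The 10 RefSeq entries for these sequences lie at 7 places in the mouse genome. The hairpin Mirlet7a-2 had no entry for let-7a-5p among them, so a further copy of let-7a-5p may be missing from this list. let-7a-5p (chr13:48538239-48538260, hairpin Mirlet7a-1), let-7f-5p (chr13:48537889-48537910, Mirlet7f-1) and let-7d-5p (chr13:48536078-48536099, Mirlet7d) stand in a row on the minus strand, outside any other gene of the table. let-7c-5p (chr15:85706616-85706637, Mirlet7c-2) and let-7b-5p (chr15:85707325-85707346, Mirlet7b) lie within the span of the long non-coding RNA gene Lncppara. A further copy of let-7c-5p (chr16:77599672-77599693, Mirlet7c-1) and let-7i-5p (chr10:122985698-122985719, Mirlet7i) lie outside other genes. let-7e-5p (chr17:17830366-17830387, Mirlet7e) falls within the span of Spaca6, let-7g-5p (chr9:106178846-106178867, Mirlet7g) within that of Wdr82, and the other copy of let-7f-5p (chrX:151912353-151912374, Mirlet7f-2) within that of Huwe1. Whether these positions are exonic or intronic was not analysed here.

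Of 4 liver markers, miR-122-5p, miR-192-5p and miR-194-5p were detected on all 24 arrays and miR-148a-3p on 19. The brain markers miR-124-3p and miR-9-5p were detected on none, nor was the muscle marker miR-1a-3p. The muscle markers miR-133a-3p and miR-206-3p were detected on 6 and 4 arrays, none of them fresh, and the summed signal of detected muscle markers reached 33.5 in stored liver and was 0 in all other groups. Of red blood cell markers, miR-451a was detected on 24 arrays, miR-486a-5p on 22 and miR-144-3p on 7. Of white blood cell markers, miR-223-3p was detected on 24, miR-142a-3p on 8 and miR-150-5p on 3. With DNase, the summed red cell signal was 224 to 429 in fresh, 182 to 236 in stored and 2.65 to 9.22 in depleted RNA. The white cell signal was 41.4 to 109, 10.4 to 26.1 and 2.45 to 5.14. The part of muscle and blood cells in the let-7 values was not tested. RIN was 8.8 to 9.0 in fresh liver, 2.3 to 2.5 after 96 h, 9.0 to 9.4 in depleted RNA with or without mock incubation, 6.0 to 7.0 at 0.026 U and 2.4 to 2.9 at 0.67 U. The number of detected miRNAs was 273 to 342 per array in fresh liver, 582 to 707 in stored liver, 186 to 238 in depleted RNA up to 0 U, and 255 to 408 after RNase. Arrays of mouse 10 stood apart among stored livers, with higher let-7 signal than those of the other mice, and the 0.026 U array of mouse 9 carried a total detected signal of 177642 against 36325 and 37604 for the other mice. Each mouse had a slide of its own for its 8 arrays, so mouse and slide cannot be told apart.

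The levels of the 8 members were first ordered by group mean. Signals below are the fluorescence intensity of a miRNA, background-subtracted and not scaled between arrays. Levels are the same signals after variance stabilizing normalization (vsn) on a scale close to log2 (glog2), on which a difference of 1 is about 2-fold. All 8 had their highest mean level in the 2 fresh groups and 7 of 8 had their lowest in the 2 stored groups. let-7i was the exception, since its mean of 4.65 in stored liver without DNase lay just above the 4.29 to 4.61 of the depleted groups.

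**Figure D1:**
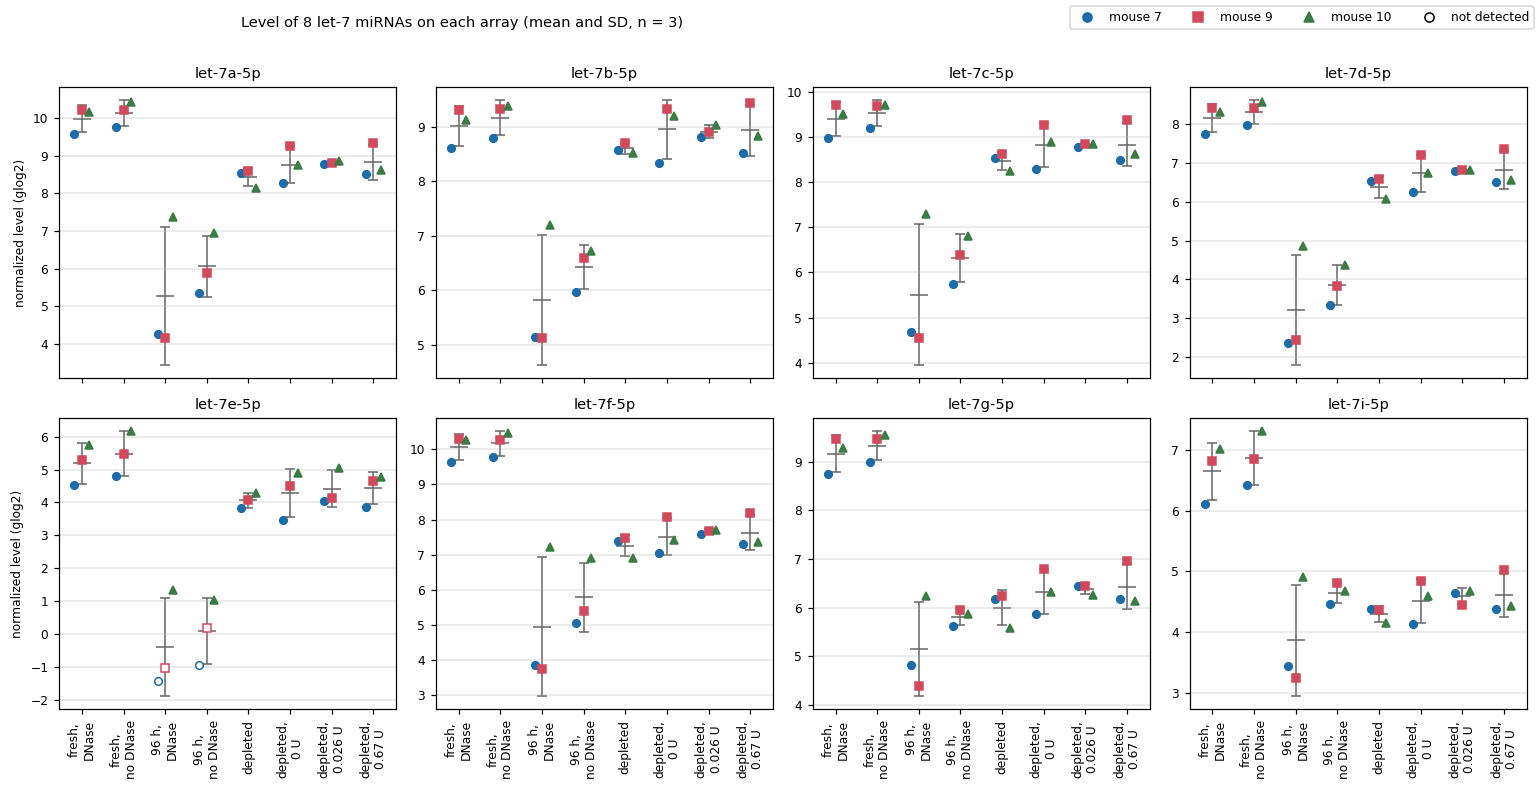
Level (glog2) of each let-7 miRNA on every array, by group on the x axis, with symbols for the 3 mice and bars for the mean and SD (n = 3). Levels are highest in fresh liver and lowest after 96 h for 7 of 8 members, and open symbols mark the 4 stored arrays on which let-7e-5p was not detected.

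Along that order most neighbouring groups could not be separated. Of the 56 steps between neighbouring groups (7 per member), 10 passed an adjusted p of 0.05 (limma, adjusted over the 631 miRNAs within each pair of groups). For let-7a, let-7b, let-7c and let-7e that single step was from depleted RNA down to stored liver. let-7d and let-7f had that step and a further one from fresh liver down to depleted RNA digested with 0.026 U of RNase. For let-7f the step from depleted RNA to stored liver ran against its unscaled mean signals. let-7g and let-7i showed only the step below the fresh groups. The 2 fresh groups did not separate for any member, nor did the 2 stored groups where they were neighbours.

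After storage for 96 h all 8 members were lower. For let-7a, DNase-treated RNA of mice 7, 9 and 10 gave signals of 569, 850.5 and 941 in fresh liver and of 53.3, 57.4 and 346 after storage. For let-7f the fresh signals were 599.7, 901 and 1005 and the stored ones 40.0, 42.8 and 312. For these 2 members every stored signal lay below every fresh signal, and mouse 10 kept the most.

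let-7b and let-7i kept more of their signal than let-7a and let-7f did. let-7b went from 289, 452 and 453 to 98.5, 113 and 307, so that 34.1%, 25.0% and 67.7% of the fresh signal remained in mice 7, 9 and 10. let-7i went from 51.2, 79.5 and 105 to 29.3, 29.6 and 61.5. For both, the stored signal of mouse 10 was above the fresh signal of mouse 7. For let-7a the remaining share was only 9.37%, 6.75% and 36.8%. let-7e went from 16.6, 27.3 and 42.9 to a signal of 3.80 in mouse 10 and was not detected in mice 7 and 9, so that 1 of 3 stored arrays measured it.

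In the fit across all miRNAs, all 8 members were called lower in DNase-treated RNA, where 21.6% of the miRNAs tested were called lower. A call required an adjusted p under 0.05 (limma, Benjamini-Hochberg over 631 miRNAs) and a change of at least 1. Changes ran from -2.79 for let-7i (95% CI -3.54 to -2.04, adjusted p = 5.34e-07) to -5.56 for let-7e (adjusted p = 6.61e-08). On this scale every stored array lay below every fresh array for all 8 members, as for 23.3% of all miRNAs. The median change over the 8 was -4.37, whereas the median over all 631 miRNAs was 2.47. Both moved with the scaling, the first from -2.55 with spike-in scaling to -6.12 with vsn on the kept miRNAs, the second from 0.15 with normexp to 3.46 without scaling. let-7e's fitted change rests on 1 detected array of 3, so its size is uncertain. Under spike-in scaling the change of let-7i was -0.99, just short of the size for a call.

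RNA prepared without DNase gave the same direction in every member. All 8 were called lower, although let-7i was not called under spike-in scaling (-0.50) or without scaling (-0.55), against 23.0% of all miRNAs tested. The changes ran from -2.21 for let-7i to -5.38 for let-7e, with a median of -3.80. let-7a fell from 659.9, 869.7 and 1108 to 98.0, 127 and 350.2 in mice 7, 9 and 10, a change of -4.07 (95% CI -5.31 to -2.82, adjusted p = 3.06e-06, limma). let-7e was again measured on 1 of 3 stored arrays, that of mouse 10, at 4.45.

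The effect of storage did not differ detectably between the DNase preparations. The difference of the 2 storage effects ran from 0.19 to 0.74 over the members, with 95% intervals between -1.61 and 2.65, and none passed the test, nor did any at an unadjusted p of 0.05 (limma). Over all miRNAs 1.11% were called. All 8 differences were above 0 in mice 7 and 9 and all 8 were below 0 in mouse 10.

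**Figure D2:**
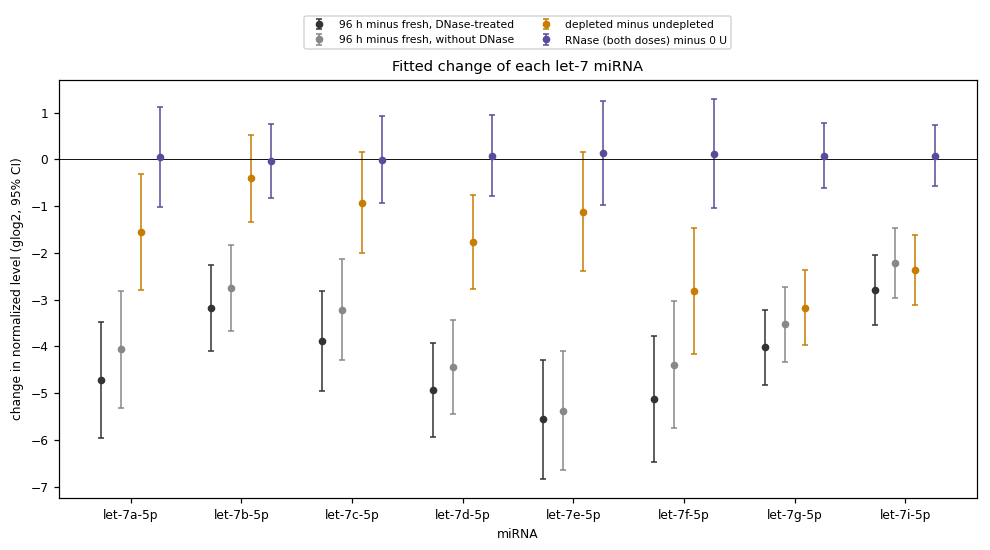
Fitted change of each let-7 miRNA (glog2, y axis) with 95% confidence intervals for storage with and without DNase, depletion of small RNAs and RNase (both doses against 0 U), n = 3 mice per group. Storage changes lie between -5.56 and -2.21, depletion spreads from -3.17 to -0.41, and RNase changes lie close to 0.

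DNase treatment itself was compared next, since residual DNA could hybridize to the probes. In fresh liver no member passed the test for a difference between RNA with and without DNase. Signals without DNase were 99.5% to 133% of those with DNase in the same mouse, the largest change was 0.29 for let-7e, and 95% intervals reached from -1.25 to 1.57. Here 0% of all miRNAs were called by limma, 30 of 631 had an unadjusted p under 0.05, and no member did. The exact rank test cannot give a p below 0.1 with 3 against 3 arrays, so it says nothing here.

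In stored liver the members had higher levels without DNase in 2 mice and lower ones in the other. For let-7a the signals of mice 7 and 9 were 53.3 and 57.4 with DNase and 98.0 and 127 without it, while mouse 10 gave 346 and 350.2. Changes were 0.48 to 0.84, none was called against 10.8% of all miRNAs, and 1 member, let-7i, had an unadjusted p under 0.05 (adjusted p = 0.201, limma). Without mouse 10 the changes ran from 0.86 to 1.46 and 6 of 8 members were called higher, against 12.7% of all miRNAs.

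Depletion of small RNAs separated the members. In depleted RNA, let-7g kept signals of 49.3, 52.8 and 35.9 in mice 7, 9 and 10, which were 15.4%, 10.4% and 7.02% of those in undepleted fresh RNA. let-7f kept 19.1%, 13.9% and 9.07%, with signals of 114, 125 and 91.2. let-7i kept 26.7%, 17.2% and 11.9%, with signals of 13.7, 13.7 and 12.6. These were the 3 members with the smallest remaining shares in every mouse.

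let-7b lost least. Its depleted signals were 262, 295 and 282, or 90.5%, 65.3% and 62.4% of the undepleted ones. let-7c kept 68.2%, 46.9% and 39.1%, and let-7e kept 55.8%, 40.5% and 32.6%. let-7a kept 45.4%, 32.0% and 23.1%, and let-7d 39.8%, 27.8% and 19.4%. The 3 mice thus placed the 8 members in one and the same order of remaining share, and mouse 7 kept the most of each.

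On the normalized scale all 8 members were lower in depleted RNA in 3 of 3 mice, and in 7 of 8 the groups did not overlap, as in 30.3% of all miRNAs in this direction. Called lower were 4 of 8, where 24.4% of all miRNAs were. They were let-7g (-3.17, 95% CI -3.97 to -2.37, adjusted p = 1.11e-06, limma), let-7f (-2.82, adjusted p = 0.00153), let-7i (-2.36, adjusted p = 1.85e-05) and let-7d (-1.76, adjusted p = 0.00639). let-7a at -1.56 (adjusted p = 0.0529), let-7e at -1.12 (adjusted p = 0.204), let-7c at -0.93 (adjusted p = 0.213) and let-7b at -0.41 (adjusted p = 0.619) were not called. With the mouse as a block, let-7a (adjusted p = 0.0346) and let-7e (adjusted p = 0.0184) were called too, which made 6, against 25.7% of all miRNAs. Without mouse 9 the call of let-7d was lost (adjusted p = 0.0757) and 3 were called, against 20.6%.

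The direction against all other miRNAs depended on the scaling between arrays. The median change of the members was -1.66 with vsn, -1.74 without scaling and -1.47 with scaling to spike-in RNAs, but 0.51 with scaling to miRNAs detected on all arrays and 0.53 with quantile normalization. In the last 2 settings, and with normexp (median 0.42), let-7b and let-7c were called higher. These 2 of 8 stand against 41.2%, 16.8% and 5.55% of all miRNAs called higher in the 3 settings, in that order. The total detected signal fell from between 55237 and 109374 per array in undepleted RNA to between 8313 and 9631, a larger drop than that of let-7. The summed signal of the 8 members therefore made up 3.57% to 4.31% of the detected signal before depletion and 9.70% to 13.4% after it. It was 0.111% to 0.790% in stored liver with DNase and 0.329% to 0.614% without. The total detected signal rose in storage, to between 199478 and 362324 with DNase. Without DNase it went from between 131979 and 163493 to between 187378 and 260481. The share in stored liver therefore reflects a larger total as well as a lower let-7 signal.

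**Figure D3:**
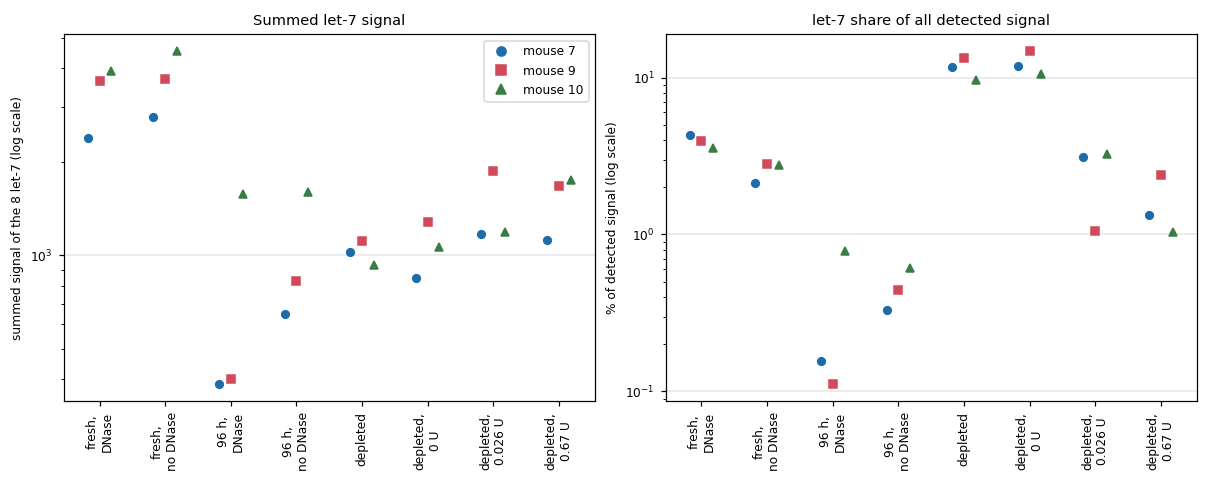
Summed signal of the 8 let-7 miRNAs (left) and its percentage of all detected signal (right) on each array, on log axes, by group and mouse. After depletion the summed signal falls to between 934 and 1114 while the share rises to between 9.70% and 13.4%. After 96 h the share is at most 0.790%, and the summed signal is below that of depleted RNA except in mouse 10 (1575 and 1599).

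A scale factor cancels between members of the same array as long as their signals are well above background, so each member was also set against let-7a of its array. A value above 0 means that a member fell less, or rose more, than let-7a did, not that its level was higher. In depletion, the change of let-7b relative to let-7a was 1.15 (95% CI 0.46 to 1.84, adjusted p = 0.0139, limma over 630 miRNAs). That of let-7g was -1.61 (95% CI -2.41 to -0.81, adjusted p = 0.00395) and that of let-7f -1.26 (95% CI -1.79 to -0.73, adjusted p = 0.000976). So 1 of 7 relative changes was called above 0, against 28.9% of all miRNAs, and 2 of 7 below 0, against 10.6%. Per mouse the let-7g value was -1.55, -1.60 and -1.69 and the let-7b value 0.99, 1.03 and 1.43. Each of the 7 members had the same sign in 3 of 3 mice, although no call was left when mouse 7 or mouse 9 was left out of the fit, and 5 of 7 were called without mouse 10, against 37.6% of all miRNAs.

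The 3 members with the largest fall are those whose base at position 12 is not G, an observation made after the values were seen. let-7f has G12A, and let-7g and let-7i have G12U. Their changes in depletion were -3.17 to -2.36, and those of the 5 members with G at that position were -1.76 to -0.41. miR-98-5p, which keeps G at position 12 and carries G11A and A19U, changed by -2.07 (adjusted p = 0.00135, limma) from signals of 9.18, 14.8 and 16.4 to 1.87, 2.40 and 2.71. It was detected on 2 of the 3 depleted arrays. let-7b, the member that lost least, has the most G and C bases, but members with equal counts differed. With 8 such bases, let-7a and let-7g changed by -1.56 and -3.17. With 9, let-7c, let-7d, let-7e and let-7i changed by -0.93, -1.76, -1.12 and -2.36.

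Storage gave another order within the family. In DNase-treated RNA let-7i fell less than let-7a, by 1.93 (adjusted p = 0.000107, limma), as did let-7b by 1.53 (95% CI 0.84 to 2.22, adjusted p = 0.00018) and let-7c by 0.83 (adjusted p = 0.00663). These 3 of 7 relative changes were called above 0, fewer than the 94.9% of all miRNAs. let-7e was at -0.85 (adjusted p = 0.0546), and the other members were not called either. With the mouse as a block the relative change of let-7e was called below 0 (adjusted p = 0.0239). Without mouse 10 a total of 5 of 7 were called, against 98.1% of all miRNAs, and mouse 10 gave the smallest let-7i value, 0.69 against 2.63 in mouse 7 and 2.48 in mouse 9.

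Without DNase the same 3 members fell less than let-7a, let-7i by 1.85, let-7b by 1.32 and let-7c by 0.85, against 88.3% of all miRNAs called above 0. The relative change of let-7e was -1.31 (95% CI -2.17 to -0.46, adjusted p = 0.0053, limma), against 0.476% of all miRNAs called below 0, but 2.46 with the normexp background correction. Its value rests on 1 detected stored array of 3. Leaving out mouse 7 left 1 of these 4 calls, that of let-7i, with 79.7% of all miRNAs called above 0. let-7g, at -1.61 in depletion, was at 0.70 and 0.54 in storage and was not called there, and let-7i, at -0.80 in depletion, was at 1.93 and 1.85 in storage. All of these share the let-7a reference, and the storage and depletion values with DNase share the fresh arrays. The difference between them was not tested.

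**Figure D4:**
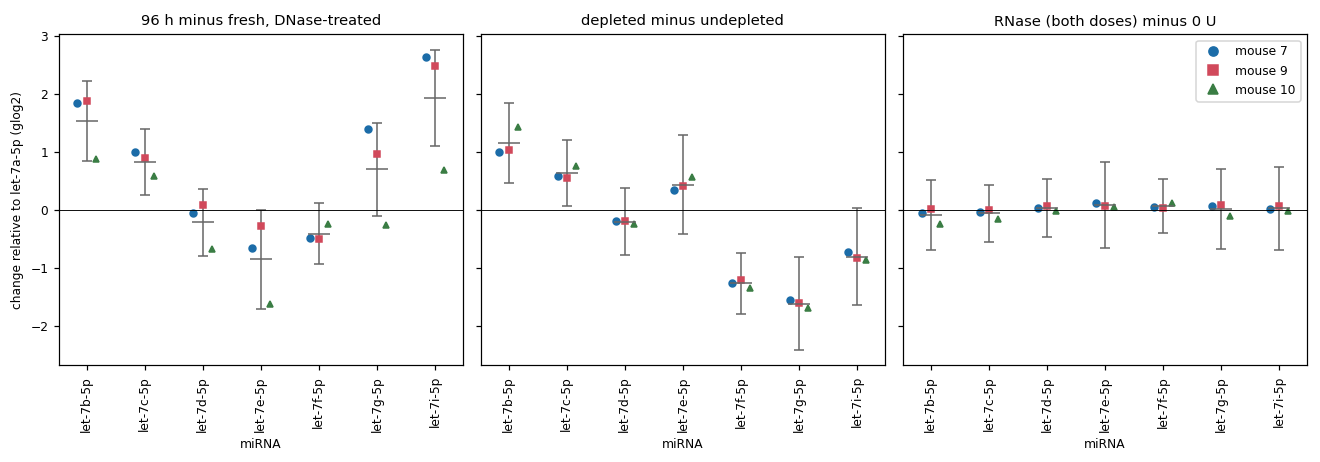
Change of each let-7 miRNA relative to let-7a-5p on the same array (glog2), per mouse (symbols) and fitted with 95% confidence intervals (bars), for storage, depletion and RNase. The 3 mice lie close together for depletion, where let-7b-5p is at 1.15 and let-7g-5p at -1.61, mouse 10 stands apart for storage, and all RNase values lie near 0.

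Incubation of depleted RNA without RNase gave no called member. Signals at 0 U were 71.7% to 84.3% of those before incubation in mouse 7 and 101% to 123% in mice 9 and 10. Changes were 0.22 to 0.35, with 95% intervals from -1.09 to 1.61, and none was called against 1.74% of all miRNAs. No member had an unadjusted p under 0.05 by limma.

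After RNase digestion the unscaled let-7 signal was higher than at 0 U in 3 of 3 mice, with no test, while no member passed the test on normalized levels. The mean signal of the 2 RNase arrays was 126% to 161% of that at 0 U over all 8 members and 3 mice. For let-7a the signals of mice 7, 9 and 10 were 212, 319.9 and 243 at 0 U, 295, 459.9 and 292 at 0.026 U, and 283, 411 and 425 at 0.67 U. For let-7b they were 221, 337 and 326 at 0 U, 299, 486 and 326 at 0.026 U, and 284, 441 and 494 at 0.67 U. Each RNase array gave more let-7a signal than the 0 U array of its mouse, and the groups overlapped between mice.

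After normalization none of the 8 was called, while 44.7% of all miRNAs were, every one of them higher. Changes were -0.03 to 0.14, with 95% intervals from -1.04 to 1.30 (adjusted p between 0.908 and 0.998, limma), and no member had an unadjusted p under 0.05 by limma or the rank test. The median over all miRNAs was 0.69. The sign again depended on scaling. Without scaling the median of the members was 0.50 and with spike-in scaling 0.54, none called, but it was -1.24 with scaling to miRNAs detected on all arrays and -1.78 with quantile normalization, with all 8 called lower in both, and -1.49 with normexp, with 6 called lower. Of all miRNAs 30.1%, 23.1% and 3.65% were called lower in these settings, in the same order. The total detected signal was 7125 to 10043 at 0 U, 36325 to 177642 at 0.026 U and 70313 to 168514 at 0.67 U, and the let-7 share of it went from between 10.6% and 14.7% at 0 U to between 1.05% and 3.26% at 0.026 U and between 1.04% and 2.38% at 0.67 U.

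Relative to let-7a the 7 other members stayed within -0.09 to 0.08 under RNase. The 95% intervals reached from -0.69 to 0.82, and none was called, against 33.0% of all miRNAs. With the normexp background correction 3 of 7 relative changes were called above 0, let-7e at 1.29, let-7i at 1.20 and let-7g at 0.68, against 98.6% of all miRNAs. RIN was 2.4 to 2.9 at the higher dose and 2.3 to 2.5 after storage, where the values relative to let-7a reached 1.93.

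No member passed the test between the higher and the lower dose. Changes were -0.04 to 0.05, with 95% intervals from -1.39 to 1.31, and 0% of all miRNAs were called by limma (9 had an unadjusted p under 0.05, none of them a member). With the doses of mouse 9 taken from the titles in place of the descriptions, the median of the members was -0.35 and still none was called. Of all 631 miRNAs 29 were then called, all higher, and 216 had an unadjusted p under 0.05 (limma). By the descriptions, the total detected signal of mouse 9 was 177642 at 0.026 U and 70313 at 0.67 U. In mice 7 and 10 it was higher at 0.67 U (83451 and 168514) than at 0.026 U (37604 and 36325).

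**Figure D5:**
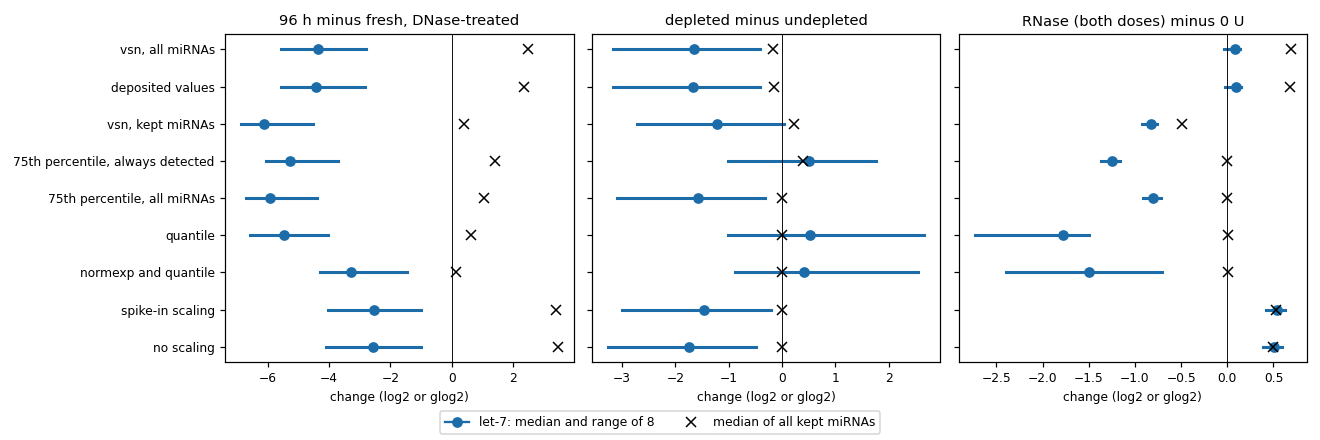
Median (dot) and range (line) of the changes of the 8 let-7 miRNAs under 9 ways of scaling the arrays, with the median of all 631 kept miRNAs (cross), for storage, depletion and RNase. For storage the let-7 range stays below 0 in all 9, for depletion and RNase its median lies on either side of 0.

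Each member's 2 probes moved alike. The unscaled log2 changes of the 2 probes of a member differed by at most 0.64 in depletion (let-7f), 0.68 and 0.51 in storage with and without DNase (let-7d both times) and 0.09 under RNase (let-7e). let-7e was left out of the storage values because a probe of it had no signal above 0 there.

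Other rows of the let-7 hairpins were mostly not detected. Of 13 names listed, 12 were on the array, 6 of these were detected on no array, and 2, let-7b-3p and let-7f-1-3p, passed the filter. Both are 3p arms, the opposite strand of the hairpin, which is usually degraded. let-7b-3p had signals of 5.47, 5.23 and 4.87 in fresh DNase-treated liver and of 13.0, 9.64 and 12.2 after storage, with no overlap between the groups. Its normalized change was -0.69 (adjusted p = 0.0124, limma), under the size needed for a call and opposite in sign to the unscaled signal. let-7f-1-3p went from 5.35, 5.21 and 5.19 to 11.6, 8.98 and 12.2 and changed by -0.78 (adjusted p = 0.00782, limma), again opposite in sign. The direction of both thus depends on the scaling, and both signals were low.

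Of 7 miRNAs that share the seed or a primary transcript with a let-7, 6 passed the filter. miR-98-5p shares the seed, and miR-99a-5p, miR-99b-5p, miR-100-5p, miR-125a-5p and miR-125b-5p are made from the same transcripts as let-7 members. All 6 were called lower in storage in both DNase preparations, with changes of -4.10 to -2.71 with DNase and -3.62 to -2.92 without. Of all miRNAs 21.6% and 23.0% were called lower there. In each stored group miR-99b-5p was detected on 0 of 3 arrays, and miR-98-5p and miR-125a-5p on 1 of 3. The sizes of their changes are therefore uncertain. In depletion 3 of 6 were called lower, where 24.4% of all miRNAs were. They were miR-99a-5p at -3.36 (adjusted p = 1.77e-06, limma), miR-100-5p at -2.67 (adjusted p = 6.52e-07) and miR-98-5p. miR-125a-5p was at -0.53 (adjusted p = 0.701). None of the 6 was called under RNase, where 44.7% of all miRNAs were.

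Profiles of the members over the 24 arrays were alike in part. Pearson's r between 2 members ran from 0.56 (let-7b and let-7i) to 0.99 (let-7a and let-7d) over 28 pairs, across arrays that share mice and groups. The 5 other miRNAs with the profile most like the mean of the 8 were miR-103-3p (r = 0.99), miR-23b-3p (0.98), miR-342-3p (0.98), miR-378a-5p (0.98) and miR-122-5p (0.97), the miRNA typical of hepatocytes. They changed by -4.87 to -2.58 in storage with DNase, by -2.20 to -1.21 in depletion and by -0.22 to 0.14 under RNase. In RNA of whole liver, fewer cells of a type and less RNA per cell cannot be told apart. The summed signal of the 4 liver markers also fell, but more in depletion than in storage. It went from between 7830 and 13757 in fresh DNase-treated liver to between 3632 and 7096 after storage and between 2491 and 3207 after depletion. The median summed let-7 signal was 3650 in fresh DNase-treated liver, 402 after storage with DNase and 1027 after depletion. In mice 7 and 9 it was lower after storage (384 and 402) than after depletion (1027 and 1114). In mouse 10 it was higher after storage (1575) than after depletion (934). No liver marker was missing from all arrays of these groups. The part of the liver markers in the let-7 values was not tested.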

How the data were processed

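Per the file headers, the authors scanned 24 one-colour Agilent mouse miRNA arrays with Feature Extraction, whose deposited output gives a background-subtracted intensity and a detection flag for every miRNA. The deposited table holds log2-scale values that the authors made with vsn. Here vsn was written anew in Python and applied to the signals of all 1881 miRNAs (SD of the difference from the deposited values 0.0956). miRNAs detected on at least 5 of 24 arrays were kept (631). limma 3.58.1 fitted 8 group means with a variance trend. Calls needed an adjusted p under 0.05 and a change of at least 1. Values relative to let-7a were called at an adjusted p under 0.05 alone. Both steps were tested on simulated data. The simulated arrays for vsn differed in scale and noise alone, so that test does not cover large shifts of many miRNAs as seen here. The descriptions give each array a number without saying what it stands for. Arrays of one number were taken to come from 1 mouse, because the paper divided each liver into parts. On that reading they are paired (mean correlation of deviations from group means 0.0914 within a mouse). The number of arrays limits precision. Exact ranks, scalings, filters, blocks and left-out mice were tried as alternatives. The members, the lists of related miRNAs and markers were chosen with earlier results of these data known. The related miRNAs named were the other let-7 rows, those of the same seed or transcript, and the 5 most correlated with the members' mean.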

Additional observations from a re-analysis of the deposited data

How the results depend on the processing

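Members called lower in storage stayed at 8 in both DNase preparations without any 1 mouse, but were 0 and 0 by the exact rank test, whose smallest two-sided p with 3 against 3 arrays is 0.1. In depletion 4 were called lower, against 1 with 75th percentile scaling over the always-detected miRNAs, 0 with quantile normalization, 0 with normexp, 0 by the rank test and 3 to 5 without 1 mouse, while 2, 2 and 2 were called higher with the first 3 of these settings. There the changes of mmu-let-7b-5p were 1.77, 2.67 and 2.55, of mmu-let-7c-5p 1.25, 1.58 and 1.47, and of mmu-let-7d-5p 0.40, 0.83 and 0.71, in the same order. Under RNase 8, 8 and 6 were called lower, against 0. The changes were -1.27, -2.03 and -1.996 for mmu-let-7a-5p, -1.24, -1.71 and -1.47 for mmu-let-7d-5p, -1.20, -1.77 and -1.51 for mmu-let-7f-5p and -1.25, -1.79 and -1.32 for mmu-let-7g-5p. With the 75th percentile and quantile settings they were -1.16 and -1.49 for mmu-let-7e-5p and -1.23 and -1.54 for mmu-let-7i-5p. The cause was not tested. Without DNase treatment of stored liver, 0 to 6 were called higher when 1 mouse was left out, 6 of them without mouse 10.

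Members whose change differed from that of mmu-let-7a-5p were 3 in storage with DNase (1 with the compared groups alone, 2 to 5 without 1 mouse), 4 without DNase (2 with quantile normalization, 1 to 6 without 1 mouse), 3 in depletion (5 with the compared groups alone, 0 to 5 without 1 mouse) and 0 under RNase (3 with normexp). With normexp the changes of mmu-let-7d-5p and mmu-let-7e-5p relative to mmu-let-7a-5p were 1.34 and 2.71 in storage with DNase, and 1.34 and 2.46 without. With the replicate block, 6 members were called lower in depletion, mmu-let-7a-5p (adjusted p = 0.0346, limma) and mmu-let-7e-5p (0.0184) joining, and mmu-let-7e-5p was called relative to mmu-let-7a-5p in storage with DNase (-0.85, adjusted p = 0.0239). The pairing changed no other call of a member. Of 346 counts under alternatives 324 stayed within 1.5 times the reported one. Most of the reported counts were 0 and many stayed at 0, so this number says little about the other counts. Signals near background limit mmu-let-7e-5p most, which 4 stored arrays did not detect.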
